A study of Mus musculus with 2 samples.

Results

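The 10 genes described here carry out or control the cell's defence against reactive oxygen species: Sod1, Sod2, Cat, Gpx1, Gpx4, Prdx1, Nfe2l2, Keap1, Hmox1 and Nqo1. They were chosen by name for their function, from 21938 protein-coding genes in the GENCODE vM21 annotation of the mouse genome (GRCm38). A peak was counted for a gene when its centre lay within 3 kb of any annotated transcription start site (TSS), in the gene body, or within 10 kb upstream. By this rule 32 of 77596 peaks belonged to the 10 genes in the list labelled WT, and 36 of 100431 in the list labelled Bmi1-/-.

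The lists come from ATAC-seq, in which a transposase cuts open chromatin so that accessible DNA gives more reads, of the organ of Corti (OC) of P2 neonatal mice. Bmi1 is a subunit of Polycomb repressive complex 1, and the study asked how its loss changes chromatin in the auditory sensory epithelium. Bmi1-/- mice carried the tm1Brn allele, backcrossed into C57BL/6J, and the WT mice were their littermates. Mice of each genotype were pooled into 1 library, so there were no biological replicates and no difference between genotypes could be tested. The OC holds hair cells, supporting cells and other cells together, and a change in the share of a cell type and a change in its chromatin cannot be told apart in such libraries.

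The peak names contradict the labels. The prefix before each peak number names the knockout in 100% of peaks labelled WT, and the wild type in 100% of peaks labelled Bmi1-/-. The genotypes below follow the GEO labels, so every direction given here is between the list labelled WT and the list labelled Bmi1-/-, and would turn if the labels were exchanged. At Bmi1 itself (chr2:18677018-18686629) 1 WT peak and 3 Bmi1-/- peaks overlapped the gene, with the strongest at the 40.1st and the 92.0th percentile of their lists. The deleted segment is not given in the sources used here, so these peaks do not check the labels.

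The library labelled Bmi1-/- was the deeper one. The background solved from the deposited values was 6.32 reads in WT and 8.04 reads in Bmi1-/-, a ratio of 1.27, and the ratio of peak numbers was 1.29. A q-value under 0.05 was reached by 52.4% of peaks in WT and by 62.8% in Bmi1-/-. At the common background the fewest reads in any peak were 13 in WT and 15 in Bmi1-/-, so a region without a peak may still hold reads below these numbers. Of 8 marker genes per cell type, promoter peaks in both lists were present for 7 of supporting cells, 6 of hair cells, 4 of neurons, 4 of endothelium, 3 of glia, 1 of mesenchyme and 0 of blood cells and macrophages. Among all protein-coding genes 53% had one in both lists, and no cell type was called from these counts.

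Superoxide dismutases turn superoxide into hydrogen peroxide, which catalase, glutathione peroxidases and peroxiredoxins then remove. The transcription factor Nrf2, encoded by Nfe2l2, is held in the cytoplasm and marked for degradation by Keap1, and oxidants that modify Keap1 release it. Nrf2 then binds the antioxidant response element (ARE) with a small Maf partner and raises genes such as Hmox1, Nqo1 and Prdx1. Hair cells are sensitive to oxidative damage, and loss of Bmi1 is known to raise oxidative stress in them.

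Sequences were read from the GRCm38.p6 genome (RefSeq) at the peaks that differed or were shared, since the ARE is the element through which Nrf2 acts. The ARE core was searched as TGACNNNGC and the AP-1 element, bound by Fos and Jun proteins, as TGANTCA, both on either strand. The letters TGACTCAGC and their reverse complement match both patterns at once. All sequences are written 5′ to 3′ on the strand of the gene, and capitals mark matches. The first lies at a peak of the Bmi1-/- list alone, 9676 bp upstream of Hmox1, and covers chr8:75083878-75084078 on the plus strand. The second lies at a peak of both lists nearer to the gene (chr8:75090246-75090446, plus strand), and the third at a neighbouring peak of the WT list alone (chr8:75089416-75089616, plus strand). Capitals in these 3 mark the ARE core and AP-1.
Hmox1 distal, Bmi1-/- peak: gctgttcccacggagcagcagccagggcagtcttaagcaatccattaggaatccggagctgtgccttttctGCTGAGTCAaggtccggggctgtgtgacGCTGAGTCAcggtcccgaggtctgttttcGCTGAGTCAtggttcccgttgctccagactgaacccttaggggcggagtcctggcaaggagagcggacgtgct
Hmox1 upstream, both lists: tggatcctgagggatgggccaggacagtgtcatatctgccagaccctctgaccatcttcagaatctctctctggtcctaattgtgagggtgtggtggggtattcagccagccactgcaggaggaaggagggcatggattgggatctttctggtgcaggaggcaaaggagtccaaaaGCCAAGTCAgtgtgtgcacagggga
Hmox1 upstream, WT peak: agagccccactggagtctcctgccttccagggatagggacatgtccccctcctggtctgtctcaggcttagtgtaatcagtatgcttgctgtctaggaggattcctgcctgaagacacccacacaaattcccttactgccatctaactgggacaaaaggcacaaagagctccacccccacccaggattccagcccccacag

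The distal Hmox1 window held 3 copies of GCTGAGTCA, each matching the ARE core and AP-1 together, at bases 72 to 80, 100 to 108 and 129 to 137. Only 2 of 100431 windows of this length around Bmi1-/- summits, this one among them, and 2 of 77596 around WT summits, held at least 3 matches of both patterns. This measure was picked after the copies had been seen. The shared upstream window held 1 ARE core, GCCAAGTCA, and the WT-only window held no match.

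The next windows cover some of the promoters at which the lists stood far apart in rank, not including Sod1, which had the largest gap. They are the stretch just upstream of Prdx1 (chr4:116685344-116685543, plus strand) and the stretch upstream of Nfe2l2 (chr2:75704642-75704941, minus strand). Nqo1 is shown at its Bmi1-/- promoter peak (chr8:107403207-107403356, minus strand) and at its WT peak in the gene (chr8:107401657-107401857, minus strand). Sod2 is shown for its run of GC boxes (chr17:13007676-13007816, plus strand). Capitals mark the ARE core and AP-1, and for the last 4 also the GC box, GGGCGG on either strand, the element bound by Sp1 family factors.
Prdx1 upstream: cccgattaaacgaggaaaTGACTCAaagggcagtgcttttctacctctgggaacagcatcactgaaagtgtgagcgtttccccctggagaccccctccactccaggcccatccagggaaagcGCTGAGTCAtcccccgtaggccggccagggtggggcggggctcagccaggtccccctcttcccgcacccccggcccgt
Nfe2l2 upstream: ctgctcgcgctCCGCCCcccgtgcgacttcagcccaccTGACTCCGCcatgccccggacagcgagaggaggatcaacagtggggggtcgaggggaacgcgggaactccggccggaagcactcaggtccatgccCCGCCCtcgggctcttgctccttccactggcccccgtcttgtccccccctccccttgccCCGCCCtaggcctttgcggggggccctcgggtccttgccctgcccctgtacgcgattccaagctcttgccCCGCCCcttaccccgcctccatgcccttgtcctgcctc
Nqo1 promoter, Bmi1-/- peak: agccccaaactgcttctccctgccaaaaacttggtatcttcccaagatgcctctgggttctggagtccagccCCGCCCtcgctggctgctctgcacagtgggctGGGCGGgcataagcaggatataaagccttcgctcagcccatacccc
Nqo1 intron, WT peak: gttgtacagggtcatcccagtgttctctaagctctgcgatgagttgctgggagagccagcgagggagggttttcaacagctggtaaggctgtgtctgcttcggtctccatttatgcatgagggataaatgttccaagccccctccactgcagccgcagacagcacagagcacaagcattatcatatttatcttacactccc
Sod2 start: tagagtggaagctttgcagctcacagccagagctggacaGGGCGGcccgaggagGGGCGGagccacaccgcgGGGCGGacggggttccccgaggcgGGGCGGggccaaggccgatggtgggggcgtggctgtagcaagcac

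GCTGAGTCA was present upstream of Prdx1, inside peaks of both lists. These letters or their reverse complement also lay 273 bp into Sod1, again inside peaks of both lists. The ARE core TGACTCCGC upstream of Nfe2l2 (chr2:75704895-75704903) lay inside the Bmi1-/- peak and in no WT peak. In the WT list it fell in the gap between promoter peaks that ended at 75704672 and began at 75704964. The single Bmi1-/- peak overlapped both of these. The 150 bp printed upstream of Nqo1 held 2 GC boxes and no ARE core, which says nothing of the sequence further upstream. The WT intronic window of Nqo1 held none of the 3 patterns. In all, TGACTCAGC occurred at 10 places in the regions of the 10 genes, in 5 of the genes. Of these places 5 lay in Bmi1-/- peaks and 2 in WT peaks, and 3 of the 5 shared the distal Hmox1 peak. Counted as peaks, 3 of 36 in the Bmi1-/- list and 2 of 32 in the WT list held the letters, beside 0.598% and 0.512% of all peaks at full length. These letters were picked after the matches had been seen, and a match is a description of the sequence, not a bound site.

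All 10 genes had a promoter peak, one with its centre within 3 kb of a TSS, in both lists. Over all protein-coding genes this was so for 53% (background of the count). In 9 of the 10 genes the promoter peaks of both lists overlapped by at least 1 bp, against 40.4% of all genes, and Nqo1 was the exception. Over the whole regions, 16 of 32 WT peaks overlapped a Bmi1-/- peak (50%, exact 95% interval 31.9% to 68.1%), beside 28.9% of WT peaks at all protein-coding genes. Of the Bmi1-/- peaks 14 of 36 overlapped a WT peak (38.9%, 23.1% to 56.5%), beside 21.9%. Both intervals treat peaks as independent, which peaks of the same gene are not. At Nfe2l2, for instance, 3 WT peaks overlapped a single Bmi1-/- peak. The intervals are therefore no test against the background. The peaks that did not overlap numbered 16 in WT and 22 in Bmi1-/-.

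Of the peaks at the 10 genes, 17 in WT and 16 in Bmi1-/- were promoter peaks. By annotation, the WT peak centres lay 11 in exons, 13 in introns and 8 upstream, and the Bmi1-/- centres 9 in exons, 14 in introns, 12 upstream and 1 downstream. The Bmi1-/- list held 1.12 times as many peaks at these genes as the WT list, and 1.26 times as many at all protein-coding genes. A −log10 q of at least 1.3 was reached by 16 WT peaks and 27 Bmi1-/- peaks, beside 53.5% and 64.6% of the peaks at all protein-coding genes. A −log10 q of at least 5 was reached by 1 and 2, beside 1.89% and 5.78%.

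**Figure D1:**
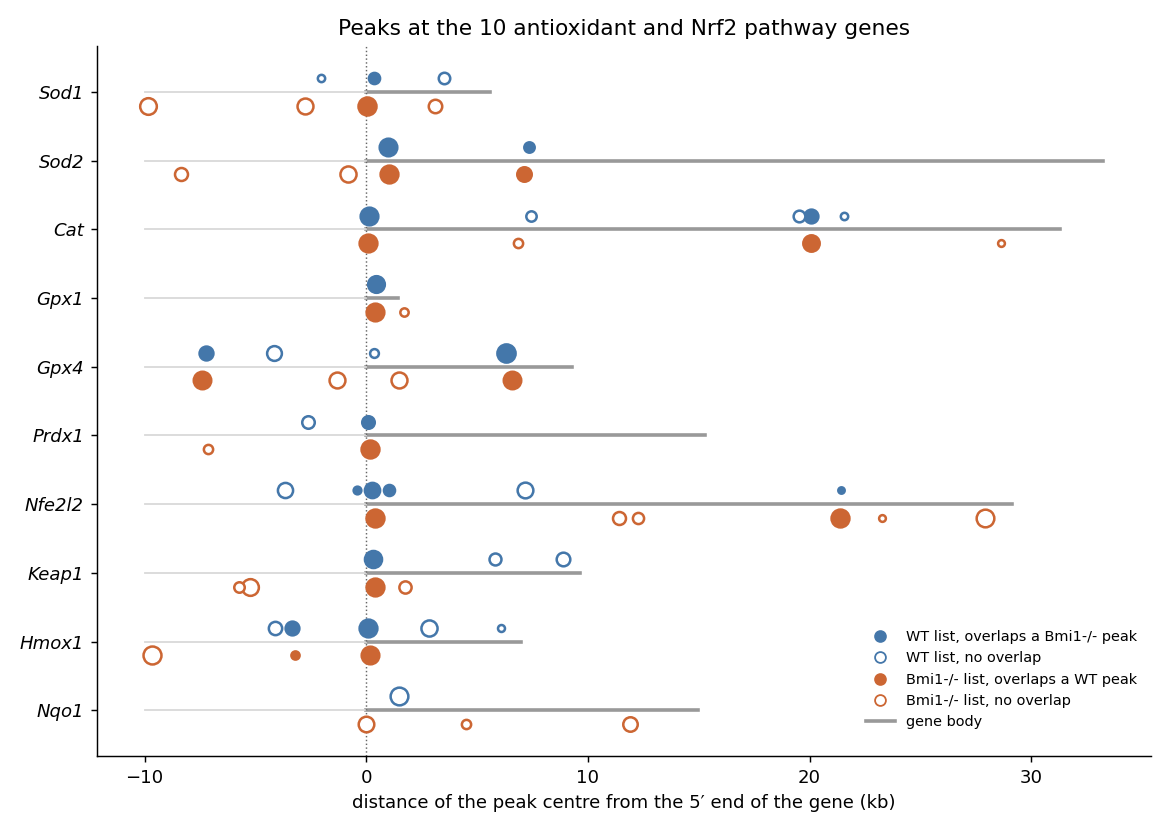
Each circle is a peak, placed by the distance of its centre from the 5′ end of the gene in kb (x axis) for each of the 10 genes (y axis), in blue above the line for the list labelled WT and in orange below it for the list labelled Bmi1-/-. Filled circles overlap a peak of the other list, open circles do not, and larger circles have a higher percentile in their own list. Filled circles lie near the 5′ ends of all genes but Gpx4, where they lie further off, and Nqo1, which has none. Cat, Nfe2l2 and Sod2 also have filled circles inside the gene, and the open orange circle farthest upstream of Hmox1 is the peak at 9676 bp.

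To compare strength across libraries of unequal depth, each gene's strongest promoter peak was given its percentile of −log10 p within its own list. For 7 of the 10 genes this percentile was higher in Bmi1-/- than in WT. The same held for 68.6% of all genes that had a promoter peak in at least 1 of the lists, so the share among the 10 was near the background. The exceptions were Gpx4, Hmox1 and Nqo1. The direction turned under 1 alternative each for these 3 and for Cat (given with each gene), and for no other gene as long as both lists kept a peak. The median percentile was 88.8 in WT and 94.1 in Bmi1-/- for the 10 genes, and 76.8 and 87.3 for all genes with a promoter peak in the list. The median of the differences, Bmi1-/- minus WT, was 5.44 points for the 10 genes and 5.29 for all genes with a promoter peak in both lists. With equal numbers of peaks from each list it was 3.76 points for the 10 genes, and 6 of them ranked higher in Bmi1-/-. The percentile may thus not remove the whole difference in depth. A rank above the 90th percentile was held by 5 of the 10 in WT and 9 in Bmi1-/-, beside 31% and 44.9% of all genes with a promoter peak in the list.

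**Figure D2:**
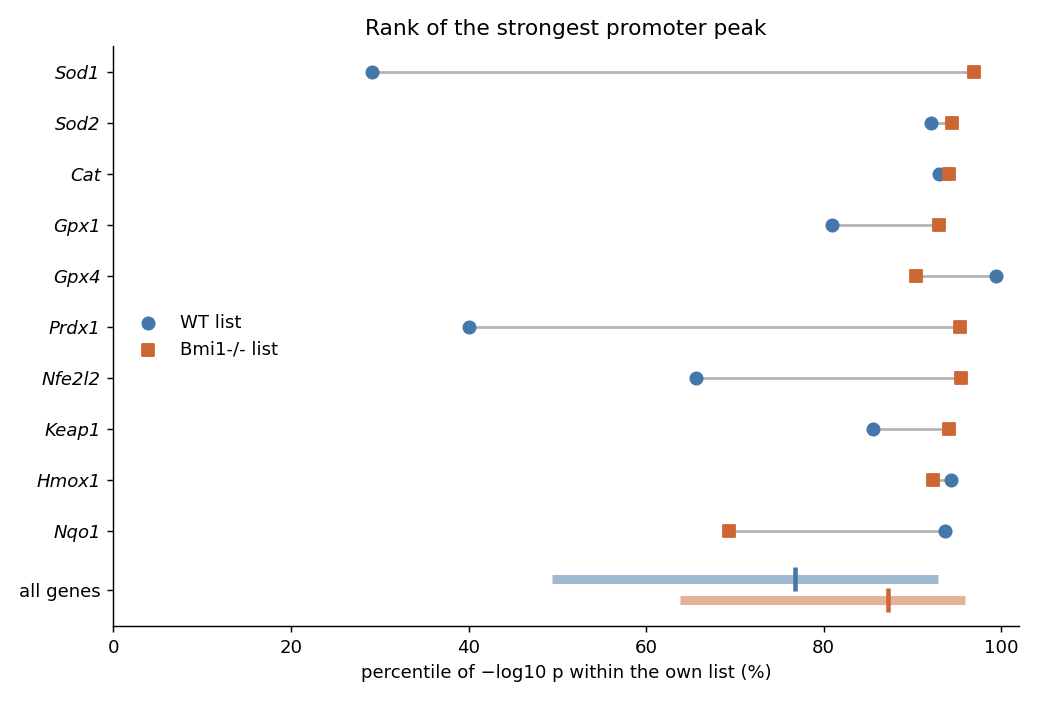
For each of the 10 genes the percentile (x axis, %) of the strongest promoter peak within its own list is shown as a blue circle for WT and an orange square for Bmi1-/-, with bars for the quartiles and ticks for the medians of all genes at the bottom. The Bmi1-/- squares lie between 90.4 and 96.9 except for Nqo1 at 69.3, while the WT circles spread from 29.1 to 99.4.

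The WT values thus spread more widely than the Bmi1-/- values. The same held over all genes, with quartiles of 49.4 and 92.9 in WT and 63.8 and 95.9 in Bmi1-/-. The following paragraphs take the genes by role, with the number of reads at the peak's summit and its exact Poisson interval, which covers counting error only.

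The superoxide dismutases come first. Sod1 (chr16:90220754-90226329), the cytosolic copper-zinc enzyme, had 20 reads at its WT promoter summit (interval 12.2 to 30.9) and 39 in Bmi1-/- (27.7 to 53.3). Its rank went from the 29.1st percentile in WT to the 96.9th in Bmi1-/-, which is the largest gap among the 10 genes, and the −log10 q was 1.0 and 6.02. The WT peak was 302 bp wide with its summit 363 bp into the gene, while the Bmi1-/- peak was 734 bp wide with its summit at 213 bp. The local background was also higher in Bmi1-/-, at 12 reads against 8.58. Sod1 also had 2 other WT peaks, 2061 bp upstream at the 4.83rd percentile and 3502 bp into the gene at the 31.4th, and 3 Bmi1-/- peaks without a WT partner at 9841 and 2753 bp upstream and 3106 bp into the gene.

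Sod2 (chr17:13006846-13040063), the manganese enzyme of mitochondria, has 8 annotated start sites, and both lists had their strongest peak at an inner one. It held 22 reads in WT (13.8 to 33.3) and 31 in Bmi1-/- (21.1 to 44.0), at the 92.1st and 94.4th percentiles. The window printed above held 4 GC boxes, all inside peaks of both lists. A weaker intronic peak, 3845 bp in WT and 3619 bp in Bmi1-/- downstream of the nearest start site, was shared at the 23.3rd and 57.8th percentiles. The Bmi1-/- list had 2 further peaks upstream, at 841 bp and 8378 bp, the second nearer to the TSS of Wtap (4299 bp).

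The enzymes that remove peroxide follow. Cat (chr2:103453849-103485160), catalase, had 24 reads in WT (15.4 to 35.7) and 28 in Bmi1-/- (18.6 to 40.5), at the 93.0th and 94.2nd percentiles. It was the gene with the smallest gap in rank, and with equal numbers of peaks taken from each list it ranked higher in WT. Inside the gene, a peak about 20 kb from the start was shared (chr2:103464957-103465257 in Bmi1-/-), at the 51.3rd percentile in WT and the 78.0th in Bmi1-/-. Its nearest TSS was that of Elf5, and 3 other WT peaks and 2 other Bmi1-/- peaks in the introns did not overlap.

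Gpx1 (chr9:108338903-108340343), the abundant cytosolic glutathione peroxidase, had 20 reads in WT (12.2 to 30.9) and 28 in Bmi1-/- (18.6 to 40.5), at the 81.0th and 93.0th percentiles. The peak covered much of this short gene in both lists, 667 bp in WT and 634 bp in Bmi1-/-. The Bmi1-/- list had 1 further peak, downstream of the gene, at the 10.2nd percentile.

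Gpx4 (chr10:80047166-80056439), which reduces lipid peroxides in membranes, went the other way. It had the strongest WT promoter peak of the 10 genes, with 40 reads (28.6 to 54.5), at the 99.4th percentile and with a −log10 q of 7.64. In Bmi1-/- it had 38 reads (26.9 to 52.2), a −log10 q of 3.42 and the 90.4th percentile. The read numbers were close, whereas the local background was 10.5 reads in WT and 15.0 in Bmi1-/-, the highest at any of the 9 overlapping promoter pairs. The peak lay at an inner start site of Gpx4. With the 5′ end of the gene alone the direction turned, since the peaks there were at the 12.9th percentile in WT and the 73.3rd in Bmi1-/-. Another shared peak in its upstream region was at the TSS of Polr2e, a subunit gene of the RNA polymerases (125 bp from it in WT and 24 bp in Bmi1-/-).

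Prdx1 (chr4:116685544-116700822), a cytosolic peroxiredoxin, had 17 reads in WT (9.90 to 27.2), the lowest of the 10, and 30 in Bmi1-/- (20.2 to 42.8). Its rank was the 40.1st percentile in WT and the 95.4th in Bmi1-/-, with −log10 q of 1.15 and 4.87. The peak was 413 bp wide in WT and 654 bp in Bmi1-/-, and both held the GCTGAGTCA printed above. A WT peak 2647 bp upstream had the same −log10 p as the peak at the start and no partner in Bmi1-/-.

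The regulators were next. Nfe2l2 (chr2:75675513-75704641) had 3 separate WT promoter peaks, the strongest with 20 reads (12.2 to 30.9) at the 65.6th percentile. In the Bmi1-/- list a single peak of 1620 bp (chr2:75703447-75705066) overlapped all 3, with 34 reads (23.5 to 47.5) at the 95.4th percentile. This was the widest promoter peak of the 10 genes. The TSS of the long noncoding transcript E030042O20Rik was 294 bp from the centre of the WT peak upstream of Nfe2l2, and the Bmi1-/- peak covered an annotated start of each of these genes.

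Within Nfe2l2, an intronic peak about 21 kb from the start was shared, with 14 reads at the 0.45th percentile in WT and 31 reads at the 95.3rd percentile in Bmi1-/- (chr2:75683141-75683425). A Bmi1-/- peak in the last part of the gene (chr2:75676482-75676933, 27 reads, −log10 q 3.97, 92.9th percentile) had no WT partner. The other 3 Bmi1-/- peaks in the gene ranked between the 2.12nd and the 44.0th percentile, and 2 WT peaks at the gene without a partner were at the 70.8th and 64.9th.

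Keap1 (chr9:21229730-21239361), the Nrf2 inhibitor, had 23 reads in WT (14.6 to 34.5) and 36 in Bmi1-/- (25.2 to 49.8), at the 85.6th and 94.1st percentiles. Its local background was 7.52 reads in WT and 12.6 in Bmi1-/-. The WT list had 2 exonic peaks further into the gene, and the Bmi1-/- list had 1 near an inner start site and 2 upstream at 5245 and 5746 bp, none with a partner. The nearest TSS to both upstream peaks was that of Gm48303.

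The remaining genes are inducible Nrf2 targets. Hmox1 (chr8:75093621-75100589), which breaks down heme, had 29 reads at its promoter in WT (19.4 to 41.6) and 31 in Bmi1-/- (21.1 to 44.0). It ranked slightly lower in Bmi1-/-, at the 92.3rd percentile against the 94.4th. By fold enrichment in place of −log10 p it ranked higher in Bmi1-/-. Further upstream, the Bmi1-/- list alone had the peak with the 3 GCTGAGTCA copies (chr8:75083749-75084140), with 30 reads over a local background of 8.04 reads. The fold enrichment was 3.43, and the −log10 q reached 5.49. It was at the 96.4th percentile, above the Hmox1 promoter itself, and the nearest WT peak edge was 1915 bp from the first copy. Its nearest TSS was that of the pseudogene Gm2059, 4804 bp away.

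The WT list alone had the Hmox1 peak 4124 bp upstream (20 reads, 47.0th percentile) and peaks in the gene at the 75.4th and 3.19th percentiles. The shared upstream peak was at the 51.1st percentile in WT and the 9.38th in Bmi1-/-. Another TGACTCAGC, 3867 bp upstream of Hmox1, lay in no peak of either list. It was 130 bp from the nearest WT peak edge and 485 bp from the nearest Bmi1-/- peak edge.

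Nqo1 (chr8:107388225-107403206), a quinone reductase, was the only gene of the 10 whose promoter peaks did not overlap. The WT peak was in the gene, 1449 bp from the start at its summit, with 24 reads (15.4 to 35.7) at the 93.6th percentile. The Bmi1-/- peak was at the start itself, 31 bp upstream, with 22 reads (13.8 to 33.3) at the 69.3rd percentile. Within 1 kb of a TSS, Nqo1 therefore had a peak in the Bmi1-/- list only, and its direction turned there. The other 2 Bmi1-/- peaks lay 4481 and 11897 bp into the gene at the 15.8th and 57.8th percentiles.

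**Figure D3:**
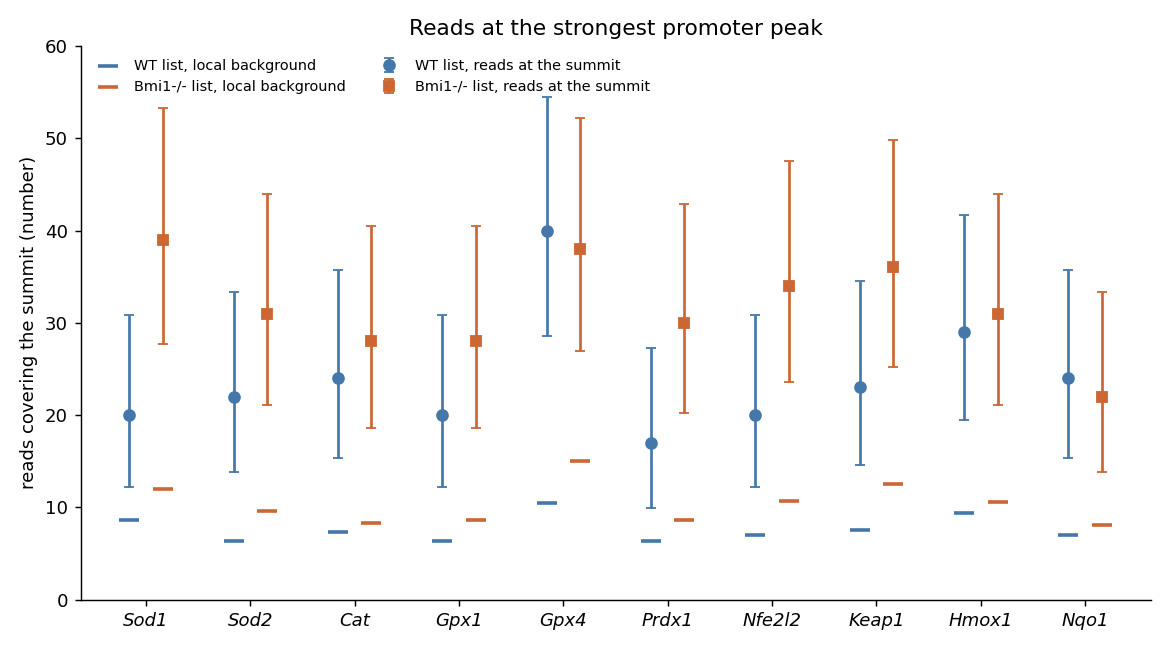
Reads covering the summit (y axis, number) of the strongest promoter peak of each of the 10 genes (x axis), with blue circles for WT, orange squares for Bmi1-/-, 95% exact Poisson intervals as bars and the local background as short lines. The squares lie above the circles for 8 genes and below them for Gpx4 and Nqo1, and the intervals of the lists overlap at every gene.

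Since the Bmi1-/- library was deeper, reads at the 9 overlapping pairs were divided by the ratio of the common backgrounds. The scaled ratio, Bmi1-/- over WT, was 1.53 for Sod1 (95% counting interval 0.873 to 2.77), 1.39 for Prdx1 (0.741 to 2.68) and 1.34 for Nfe2l2 (0.747 to 2.45). It was lowest for Gpx4 at 0.747 (0.466 to 1.19), Hmox1 at 0.840 (0.490 to 1.45) and Cat at 0.917 (0.513 to 1.65). Keap1 at 1.23, Sod2 at 1.11 and Gpx1 at 1.10 lay between. For 0 of the 9 genes did the interval exclude 1, beside 1.76% of all promoter pairs above 1 and 0.203% below.

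The median scaled ratio was 1.11 for the 9 genes and 1.07 for all 8853 promoter pairs, a shift of 0.10 on the log2 scale for all genes. Relative to that median 6 of the 9 genes lay above and 3 below, as they did relative to 1. Without scaling the medians were 1.41 and 1.36. Differences of this size at a single promoter were therefore not detectable at this depth.

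**Figure D4:**
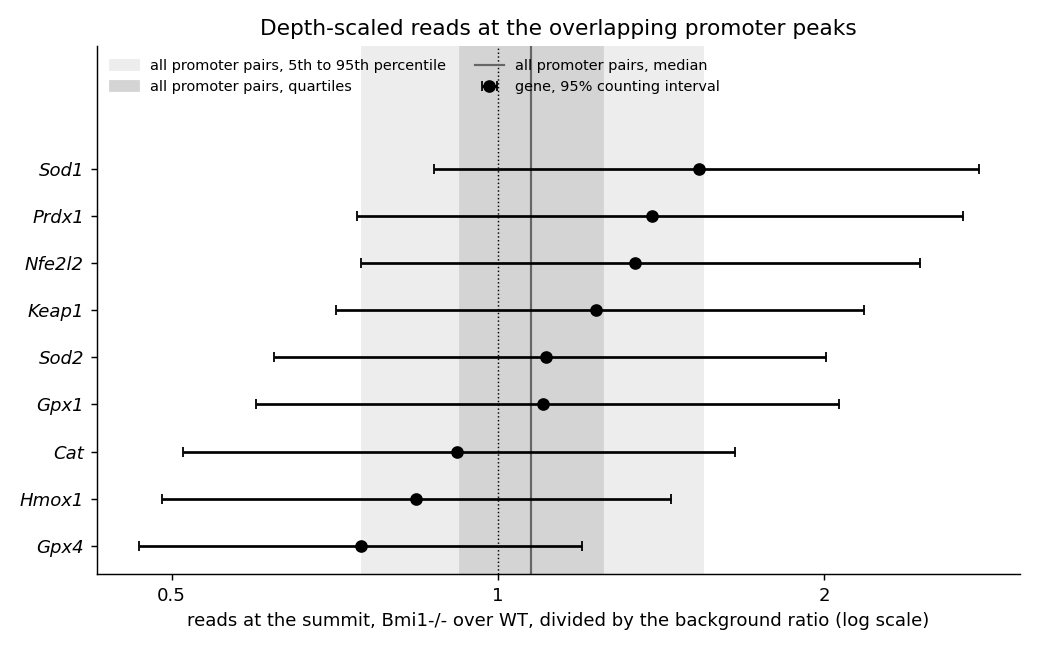
Points give the reads at the overlapping promoter peaks, Bmi1-/- over WT and divided by the background ratio (x axis, log scale), for 9 genes (y axis), with 95% counting intervals as bars. Light and dark grey bands mark the 5th to 95th percentiles and the quartiles of all 8853 promoter pairs, and every interval crosses 1.

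The Bmi1-/- peak was the wider one in 7 of the 9 pairs, beside 74.8% of all pairs, and the exceptions were Cat and Gpx1. The median width was 556 bp in WT and 654 bp in Bmi1-/- for these genes, and 390 bp and 611 bp for all pairs. Summits of the strongest promoter peaks lay close to a start, at a median of 97.5 bp in WT and 91.5 bp in Bmi1-/-, against 275 bp and 185 bp for all genes.

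Promoter windows, 100 bp to each side of the summit, were rich in G and C at these genes. The median GC content was 65.7% in 17 WT windows and 63.2% in 16 Bmi1-/- windows, and 58.7% in all promoter windows of each list. A GC box was in 7 of the WT and 6 of the Bmi1-/- windows (30.1% and 30.4% of all promoter windows). The ARE core was in 2 and 1 of them (9.92% and 9.74% of all), and AP-1 in 1 and 2 (3.89% and 3.83% of all). The E-box CACGTG, bound by factors such as Myc and Usf, was in 0 and 2 (4.93% and 4.99% of all). The forkhead element GTAAACA, bound by Foxo factors, was in 0 and 0 (1.41% and 1.43% of all). Away from promoters the ARE core was in 2 of 15 WT and 3 of 20 Bmi1-/- windows (9.07% and 8.90% of all).

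The wider pathway was followed in 69 genes in 8 lists. Of these 50 had a promoter peak in both lists, 8 in Bmi1-/- only, 2 in WT only and 9 in neither. Over all protein-coding genes these shares were 53%, 15.2%, 6.1% and 25.7%. Where either list had one, the strongest peak ranked higher in Bmi1-/- for 45 of 60 genes (75%, beside the 68.6% of all genes given above). Their median scaled ratio over 40 pairs was 1.11.

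Of the Nrf2 regulators 11 of 11 had promoter peaks that overlapped between the lists (40.4% of all genes). They include the Cap'n'collar factor Nfe2l1, the repressor Bach1, small Maf partners and the ubiquitin ligase parts that act on Nrf2. The highest ranks of all 69 genes in WT were held by Nfe2l1 (99.8), Gsk3b (99.2) and Cul3 (98.2), and in Bmi1-/- by Cul3 (99.8), Rbx1 (99.8) and Gsk3b (99.7). Cul3 is the scaffold of the ligase that Keap1 directs, Rbx1 its RING subunit and Gsk3b a kinase that marks Nrf2 for another ligase.

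Of the 40 wider pathway genes with an overlapping pair, 4 had a scaled ratio with an interval above 1 (1.76% of all promoter pairs), and these 4 were Nrf2 regulators. Cul3 had 26 reads in WT and 58 in Bmi1-/- (ratio 1.75, 1.09 to 2.90), and Rbx1 had 26 and 54 (1.63, 1.005 to 2.72). The other 2 are named here after their values were seen. Maff, a small Maf protein, had 19 and 49 reads (2.03, 1.17 to 3.65), and Btrc, the substrate receptor of the other ligase, had 23 and 49 (1.67, 1.001 to 2.88). The intervals of Cul3 and Maff lay above the median of 1.07 over all promoter pairs, while those of Rbx1 and Btrc included it. These intervals cover counting error only and are not a test between genotypes. An interval narrows as reads rise, and these 4 genes had 49 to 58 reads in Bmi1-/-, beside a median of 22 over all peaks of that list. The share over all promoter pairs was not matched for read number, and the lists were chosen with earlier results of these data known. Nfe2l1, in contrast, had 47 and 50 reads, a ratio of 0.836 (0.550 to 1.27).

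The counts of the other lists read against the same background, 53% of all genes with a promoter peak in both lists and 68.6% ranking higher in Bmi1-/-. Glutathione synthesis and recycling had promoter peaks in both lists for 8 of 12 genes, with Glrx and Glrx2 in Bmi1-/- only and the cystine carrier Slc7a11 and Gpx2 in neither. Thioredoxins and peroxiredoxins had 8 of 11, with Prdx2 in Bmi1-/- only and Prdx4 and Prdx6 in neither. All 8 genes of NADPH supply had one in both lists, and 7 ranked higher in Bmi1-/-. Of the superoxide dismutase accessory genes the copper chaperone Ccs had one in both lists and the extracellular enzyme Sod3 in neither.

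Heme and iron genes had 5 of 6, with the biliverdin reductase Blvra in Bmi1-/- only at the 97.0th percentile. Detoxification genes had 5 of 8, with Gstp1 at the 96.4th percentile and Osgin1 at the 49.2nd in Bmi1-/- only, and Akr1b8 in neither. Oxidant producers had 4 of 11. Of these, the NADPH oxidase genes Nox1, Nox3 and Cybb had a promoter peak in neither list, Duox1 and Noxa1 in WT only, and Duox2 and the xanthine oxidase gene Xdh in Bmi1-/- only. Nox3, the oxidase best known from the inner ear, was thus without a called promoter peak in either library.

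**Figure D5:**
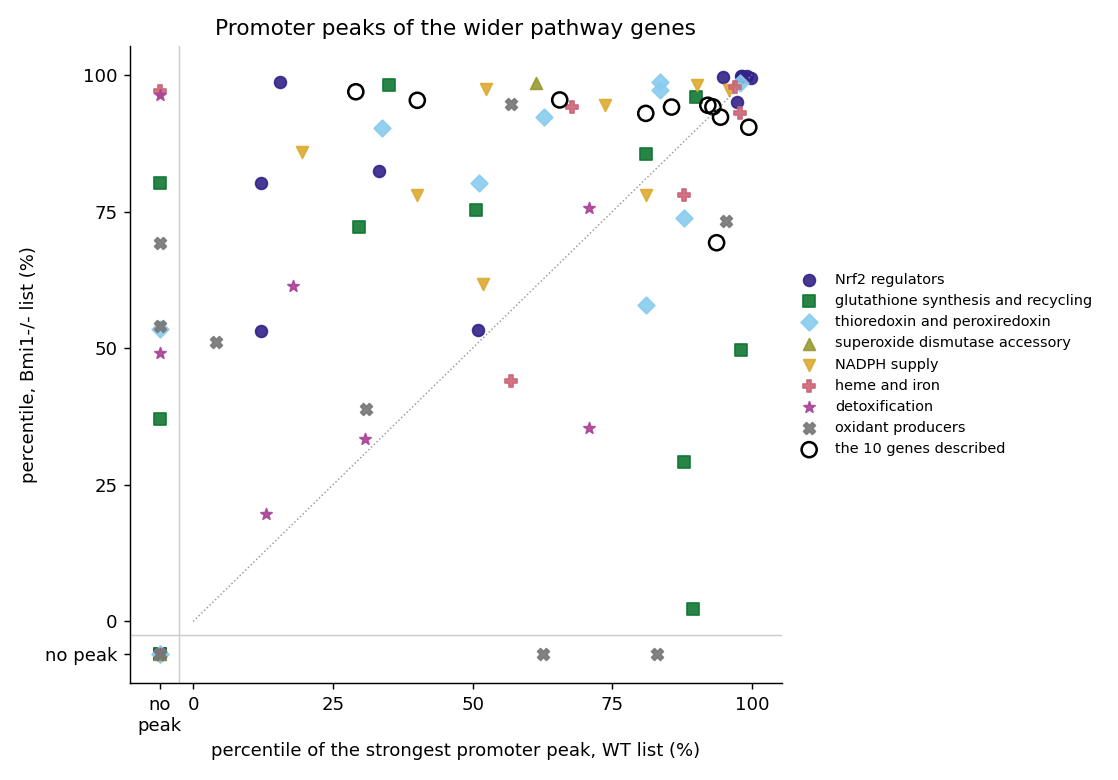
Each symbol is 1 of the 69 wider pathway genes, placed by the percentile of its strongest promoter peak in the WT list (x axis, %) and the Bmi1-/- list (y axis, %), coloured by list, with genes without a promoter peak at the margins and the 10 genes described as open circles. Of the 60 genes with a peak in either list 45 lie above the diagonal or at the left margin, and the symbols for Cul3, Rbx1, Gsk3b and Nfe2l1 crowd the upper right corner.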

How the data were processed

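Per the labels and the study's methods, organs of Corti of P2 mice were pooled into 1 ATAC-seq library per genotype and sequenced as paired ends. The authors trimmed the reads, checked them with FastQC, mapped them with BWA (build mm10, per the submitters' processing notes) and ran MACS2 on each library separately to call peaks. Versions are not given in the sources used here. The deposited narrowPeak lists give a fold enrichment (ratio over the local background), a −log10 p, a −log10 q and an integer score, which was not used. Peaks on unplaced sequences were left out (230 WT and 237 Bmi1-/-). mm10 and GRCm38 share coordinates, and no peak passed a chromosome end.

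Reads at a summit and the background were solved from fold enrichment and −log10 p under MACS2's Poisson model with a pseudocount of 1 in the fold, and every peak was solved to within 0.001 of its −log10 p. The procedure was tested on simulated data. Percentiles use −log10 p within each list (mean rank for ties). Overlap needed 1 bp. Poisson and binomial intervals are exact and at 95%, and the interval of a ratio is exact and conditional on the sum of reads. All cover counting error only. Total reads are not in the files, so depth was read from the common background. Python 3.11.15, numpy 2.4.6, pandas 2.3.3, scipy 1.17.1 and samtools 1.23.1 were used.

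With 1 library per genotype no test was possible. A further sequence window is not reported here. The genes, lists and motifs were chosen with earlier results of these data known. Named were the 10 genes, the gene whose TSS was nearest to a peak, and of the wider lists every gene with a promoter peak in 1 list only or in neither and the 3 of highest rank in each list. In a few places a gene is named outside this rule: Bmi1, for the labels, Ccs and Bach1 as list members, and Maff and Btrc after their values were seen. Alternatives were q-value limits, equal peak numbers, the summit in place of the centre, RefSeq annotation, promoter and region widths, the gene's 5′ end alone, reciprocal overlap and ranking by fold enrichment.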

Additional observations from a re-analysis of the deposited data

How the results depend on the processing

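No paired analysis was possible because there was 1 library per genotype. Of 62 values of the 9 counts and medians under 10 alternatives, 45 stayed within 1.5 times of the value reported and 17 moved further. Only the median difference could change sign, as the other results are counts, and it did so under 0 alternatives. With a −log10 q of at least 1.3, 8 genes had a promoter peak in both lists and 2 in Bmi1-/- only, the WT peaks numbered 16, and 9 WT and 9 Bmi1-/- peaks overlapped. With at least 5, where few peaks are left by construction, 0 genes had a promoter peak in both lists, 1 in Bmi1-/- only and 1 in WT only, 1 WT and 2 Bmi1-/- peaks remained with 0 and 0 overlapping, 1 gene ranked higher in Bmi1-/-, and a median difference could not be given. Promoters within 1 kb left 1 gene, Nqo1, with a peak in Bmi1-/- only and gave a median difference of 8.53 points, and the 5′ end of the gene alone gave 10.3. A reciprocal overlap of 50% left 9 WT and 9 Bmi1-/- peaks overlapping. The direction of rank turned for Cat with 77596 peaks from each list, for Nqo1 within 1 kb, for Gpx4 at the 5′ end alone and for Hmox1 by fold enrichment. Read numbers were low and there were no replicates, and for 0 of 9 promoter pairs did the counting interval of the scaled ratio exclude 1.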
